A study of Mus musculus with 6 samples.

Results

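The genes described here encode 10 cell adhesion molecules of 5 families. L1cam, Chl1, Nrcam and Nfasc form the L1 family, Ncam1 and Ncam2 the NCAM family, Cntn1 and Cntn2 are contactins, Cntnap1 encodes the contactin-associated protein Caspr, and Alcam stands alone. They were chosen by name, with earlier results of these data known, and they make up 10 of the 22086 genes that could be matched in the count tables. A gene's values are those of whichever of its transcripts had the most counts summed over the 6 libraries. Of the 10, 9 encode proteins of the immunoglobulin superfamily. Cntnap1 is the exception, since Caspr is a neurexin-like partner of contactin without immunoglobulin domains.

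Polysomal mRNAs of hippocampal astrocytes were recovered by translating ribosome affinity purification (TRAP), in which ribosomes tagged with eGFP are immunoprecipitated and the mRNAs they carry are sequenced. All mice were 6 weeks old and carried the heterozygous BAC transgene Aldh1l1:L10a-eGFP, whose Aldh1l1 promoter is active in astrocytes, together with floxed Cx43 alleles (Cx43 fl/fl). Cx43KO, with 3 libraries, also carried a Cre recombinase driven by the human GFAP promoter, and Cx43FL, with 3 libraries, were littermates without it. The number of mice behind a library is not given in the sources used here, so p-values measure only the spread between these libraries. Libraries held between 33423491 and 34921942 transcript counts in Cx43FL and between 36869534 and 77030398 in Cx43KO. Every Cx43KO library was thus deeper than every Cx43FL library. Levels are given as CPM, counts scaled to a common library size, on which 3 counts corresponded to between 0.0864 and 0.203.

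Gja1, the gene of Cx43 and the target of the Cre, was not lower in the libraries labelled KO. Cx43FL replicates 1 to 3 had 91.9, 91.7 and 82.3 CPM, against 87.2, 98.4 and 95.1 CPM for Cx43KO replicates 1 to 3; the same order of replicates is kept for every gene. The counts therefore do not show the deletion, and Cx43KO stands throughout for the libraries labelled KO, all directions included. Per the paper, Cre activity in the brain was checked through β-galactosidase before the experiments, and that evidence was not examined here. Astrocyte markers made up the largest share of the marker lists in each Cx43FL library, with summed CPM of 37350, 37710 and 40720 over 14 genes. They were at 17070 in Cx43KO replicate 1, against 36510 and 51500 in replicates 2 and 3. In Cx43KO replicate 1 the markers of ependyma and choroid plexus summed to more, at 32840, of which Ttr alone made up 32150. Cx43KO replicate 1 thus stood apart. For the adhesion genes and their partners, values without that library are given where it moved them.

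The L1 family, NCAMs and contactins hold cells together and guide growing processes by binding their own kind or one another across the gap between membranes. L1 proteins cross the membrane and fasten to the spectrin skeleton through ankyrins, contactins sit on a lipid anchor, and NCAM is made in forms with either kind of attachment. They are best known from axons, nodes of Ranvier and synapses, and several are also made by glia.

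The feature that gives the L1 family its link to the cytoskeleton is a short ankyrin-binding stretch in the cytoplasmic tail. Its coding bases are shown because all 4 genes carry it, while their log2 fold changes given further on ranged from 1.06 to 3.61. They were read from the GENCODE M21 transcripts (GRCm38), 5′ to 3′ on the coding strand, and capitals mark the 15 bases of the motif.
L1cam, chrX:73855122-73855136, minus strand: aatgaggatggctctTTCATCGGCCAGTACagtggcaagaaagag
Nrcam, chr12:44598486-44598500, plus strand: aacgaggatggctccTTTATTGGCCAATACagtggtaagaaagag
Nfasc, chr1:132570507-132570521, minus strand: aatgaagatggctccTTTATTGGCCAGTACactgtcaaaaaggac
Chl1, chr6:103729249-103729263, plus strand: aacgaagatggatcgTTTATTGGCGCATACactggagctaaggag
The bases equal to those of L1cam were 13 of 15 in Nfasc, 12 of 15 in Nrcam and 10 of 15 in Chl1. All 5 codons of Nrcam and of Nfasc encode the residue that L1cam has, as do 4 of the 5 codons of Chl1.

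Per kb of transcript, Nrcam was the most abundant member in Cx43FL at 20.96 ± 1.43 CPM per kb (SD, n = 3 libraries). It was followed by Cntn1 at 19.3 ± 6.1, Ncam1 at 15.9 ± 5.3, Alcam at 10.6 ± 2.8, Nfasc at 8.51 ± 2.25, Chl1 at 5.60 ± 1.17 and Ncam2 at 3.73 ± 0.73 CPM per kb. Cntnap1 at 1.67 ± 0.52, Cntn2 at 1.61 ± 0.87 and L1cam at 0.649 ± 0.253 CPM per kb were the lowest. Neighbours in this order had overlapping libraries except Ncam2 and Cntnap1, and L1cam overlapped with Cntn2 only by a single library. The lengths are those of GENCODE M21, whereas the counts were made on Ensembl 75, so that a level per kb is less certain than a CPM. In Cx43KO the mean of L1cam was 7.94 ± 5.30 CPM per kb, above the Cx43KO means of Ncam2, Cntnap1 and Cntn2, at 5.35 ± 1.73, 5.28 ± 3.52 and 2.47 ± 0.84 CPM per kb. This did not hold in Cx43KO replicate 2, where L1cam at 1.83 was still the lowest member, against 7.13, 3.61 and 3.23 CPM per kb for these genes.

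**Figure D1:**
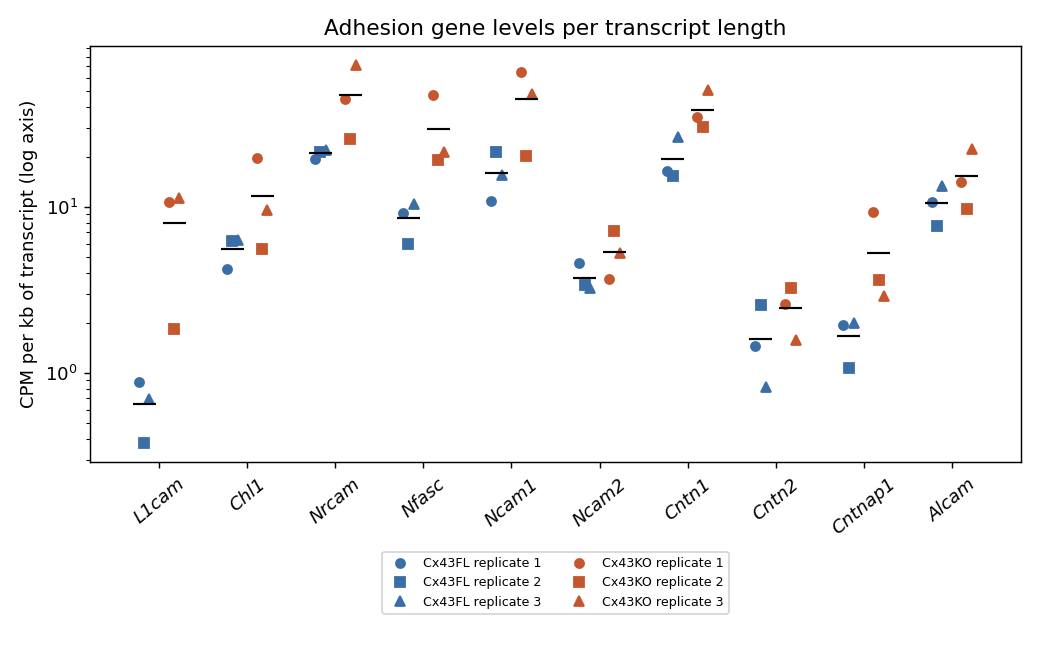
Level of each adhesion gene in CPM per kb of its counted transcript (log axis), for Cx43FL (blue) and Cx43KO (orange) replicates 1 to 3, with black lines at the group means. L1cam is the lowest of the 10 in Cx43FL, at a mean of 0.649, and Nrcam has the highest mean in both groups.

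All 10 genes passed the filter on low counts and all 10 had a higher fitted level in Cx43KO than in Cx43FL, with log2 fold changes from 0.52 to 3.61 and a median of 1.11. Of all 13545 genes tested, 54.4% had a positive log2 fold change and the median was 0.071. None of the 10 passed the threshold of an adjusted p below 0.05 by edgeR's quasi-likelihood test, their lowest adjusted p being 0.490. Of all genes tested, 0.00738% were called higher, and this was the single gene Prm1, named after its value was seen. DESeq2 with its prior called L1cam and Nfasc, 2 of the 10, against 0.827% of the genes it tested. The unadjusted p was below 0.05 for 7 of the 10, all higher in Cx43KO, against 5.66% of all genes. Because the genes were listed with results of these data known, these counts describe the list and test nothing about it. L1cam and Nfasc also stand on the study's own list of higher genes, which was made from these libraries, so their direction is not independent evidence.

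In every Cx43KO library, 5 of the 10 genes lay above every Cx43FL library, namely L1cam, Nrcam, Nfasc, Cntn1 and Cntnap1, against 8.08% of all genes. For Cx43KO replicates 2 and 3 alone, 6 of the 10 did, Ncam2 being added, against 13.9% of all genes. The genes did not all share the same pattern among the 3 Cx43KO libraries. Replicate 1 was the highest of them for Chl1, Nfasc, Ncam1 and Cntnap1, replicate 2 for Ncam2 and Cntn2, and replicate 3 for L1cam, Nrcam, Cntn1 and Alcam. Cx43KO replicate 2 was the lowest of the 3 for 7 of the 10 genes.

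**Figure D2:**
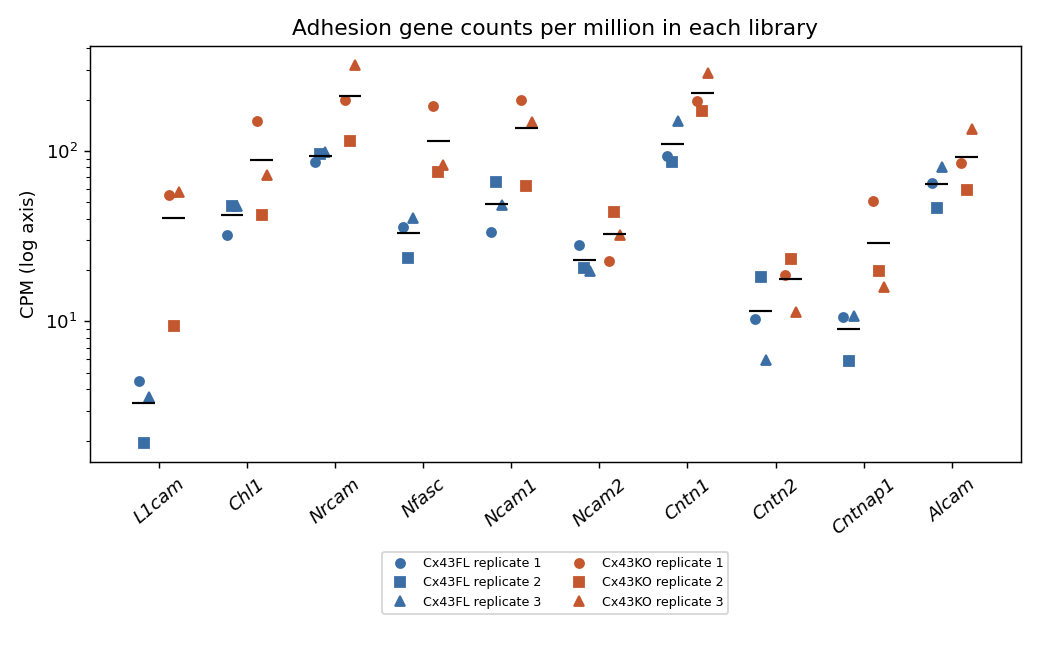
CPM (log axis) of each adhesion gene in Cx43FL (blue) and Cx43KO (orange) replicates 1 to 3, with black lines at the group means. The libraries do not overlap between groups for L1cam, Nrcam, Nfasc, Cntn1 and Cntnap1, and they overlap for the other 5 genes.

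L1cam (chrX:73853778-73896105, 27 exons in the counted transcript), the founding member of its family and a homophilic adhesion molecule of growing axons, showed the largest difference. Positions here and for the other genes are on GRCm38. It stood at 4.48, 1.92 and 3.58 CPM in Cx43FL against 55.0, 9.36 and 57.7 CPM in Cx43KO, from counts of 68, 29 and 55 and of 886, 233 and 1869. The lowest Cx43KO library was thus above the highest Cx43FL library, while Cx43KO replicate 2 was well below the other two. The mean normalized counts were 66.0 ± 25.7 and 807 ± 539 (SD, n = 3 libraries each), a 12.2-fold ratio. The log2 fold change was 3.61 (standard error 0.73; edgeR adjusted p = 0.490), and DESeq2 with its prior gave an adjusted p of 1.66e-04. Without Cx43KO replicate 1 the log2 fold change was 3.33 (standard error 0.73).

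Nfasc (chr1:132564690-132741797, 28 exons) encodes neurofascin, whose forms gather sodium channels at nodes and initial segments and join glial loops to the axon. Its CPM were 35.9, 23.4 and 40.4 in Cx43FL against 184.5, 74.9 and 83.1 in Cx43KO. The groups did not overlap, and Cx43KO replicate 1 was more than double the other Cx43KO libraries. The log2 fold change was 1.78 (standard error 0.42; edgeR adjusted p = 0.490), and it was 1.25 (standard error 0.34) without Cx43KO replicate 1. The adjusted p of DESeq2 with its prior was 0.0210.

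Nrcam (chr12:44328885-44601964, 31 exons) encodes an L1-family protein that takes part in clustering channels at nodes and in axon guidance. Its CPM were 86.5, 95.8 and 98.7 in Cx43FL against 198.7, 114.0 and 320.0 in Cx43KO. The Cx43FL libraries lay close together, and all Cx43KO libraries were above them, replicate 2 by little. The log2 fold change was 1.17 (standard error 0.37; edgeR adjusted p = 0.538), and 1.21 without Cx43KO replicate 1.

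Chl1 (chr6:103510586-103750211, 27 exons), close homolog of L1, promotes neurite growth. Its CPM were 32.1, 47.4 and 47.5 in Cx43FL against 149.7, 42.2 and 72.5 in Cx43KO. Cx43KO replicate 2 lay inside the range of the Cx43FL libraries. The log2 fold change was 1.06 (standard error 0.45; edgeR adjusted p = 0.587), and it fell to 0.43 (standard error 0.37) without Cx43KO replicate 1, so that 1 library carried most of the difference.

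Ncam1 (chr9:49502136-49798925, 18 exons), the neural cell adhesion molecule that carries polysialic acid, had CPM of 33.3, 66.1 and 47.9 in Cx43FL against 199.2, 62.5 and 148.6 in Cx43KO. Cx43KO replicate 2 was below Cx43FL replicate 2, and the groups overlapped by these libraries alone. The log2 fold change was 1.48 (standard error 0.44; edgeR adjusted p = 0.492), and 1.10 (standard error 0.41) without Cx43KO replicate 1. Its paralog Ncam2 (chr16:81200697-81626828, 18 exons), best known for sorting olfactory axons, had CPM of 27.9, 20.6 and 19.9 in Cx43FL against 22.5, 43.6 and 32.0 in Cx43KO. Here Cx43KO replicate 1 was the library that overlapped with Cx43FL, and the log2 fold change was 0.52 (standard error 0.44; edgeR adjusted p = 0.733).

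Cntn1 (chr15:92051165-92341967, 24 exons) encodes contactin, the lipid-anchored partner of Caspr in the axonal membrane beside the node. Its CPM were 93.2, 86.5 and 149.3 in Cx43FL against 196.5, 171.0 and 285.2 in Cx43KO. The groups did not overlap, and the log2 fold change was 0.99 (standard error 0.33; edgeR adjusted p = 0.540), or 1.05 without Cx43KO replicate 1. Cntnap1 (chr11:101170523-101190724, 24 exons), which encodes Caspr, had CPM of 10.6, 5.84 and 10.8 in Cx43FL against 50.7, 19.7 and 15.8 in Cx43KO. These groups did not overlap either, and the log2 fold change of 1.66 (standard error 0.60; edgeR adjusted p = 0.540) became 0.96 (standard error 0.56) without Cx43KO replicate 1.

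Cntn2 (chr1:132509427-132543256, 23 exons) encodes TAG-1, a contactin that axons and oligodendrocytes use to hold potassium channels beside the paranode. Its CPM were 10.3, 18.3 and 5.93 in Cx43FL against 18.8, 23.2 and 11.3 in Cx43KO, and the groups overlapped. The log2 fold change was 0.62 (standard error 0.60; edgeR adjusted p = 0.765). Cntn2 and Nfasc are neighbours on chromosome 1, with 21.43 kb and no other counted gene between them, and their log2 fold changes were 0.62 and 1.78.

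Alcam (chr16:52248996-52454074, 16 exons) encodes an adhesion molecule of neurons, endothelium and leukocytes that also binds CD6 of T cells. Its CPM were 64.9, 46.1 and 80.2 in Cx43FL against 84.9, 58.7 and 134.4 in Cx43KO. Cx43KO replicate 2 lay inside the range of the Cx43FL libraries, and the log2 fold change was 0.54 (standard error 0.38; edgeR adjusted p = 0.679).

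Without Cx43KO replicate 1, all 10 log2 fold changes were still positive, and 5 of the 10 genes had an unadjusted p below 0.05 (L1cam, Nrcam, Nfasc, Ncam1 and Cntn1), against 5.17% of all genes higher in that fit. Chl1 and Cntnap1 were the genes that dropped out. Cntnap1, Chl1 and Nfasc had the largest falls in log2 fold change, whereas Nrcam, Ncam2, Cntn1 and Alcam had slightly larger values without this library.

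**Figure D3:**
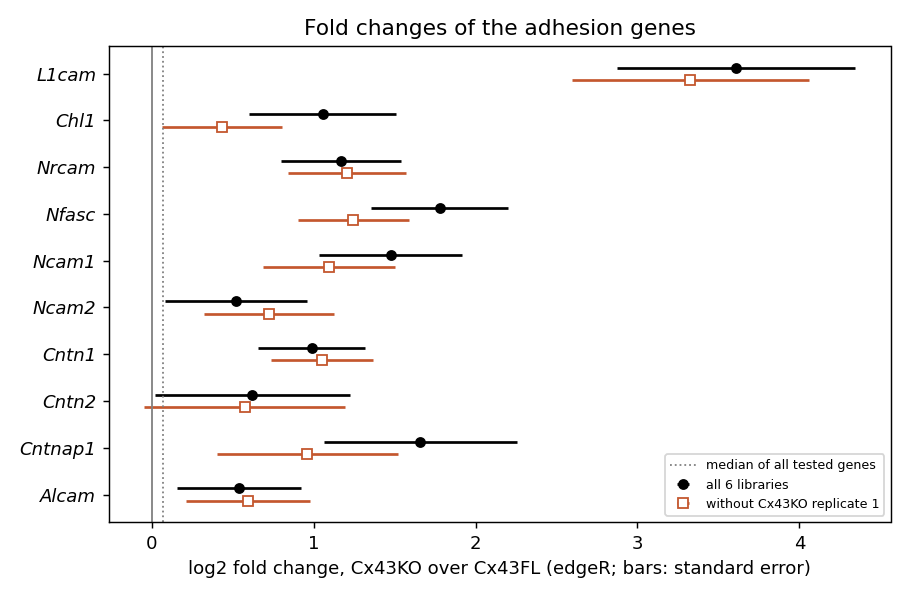
edgeR log2 fold change of Cx43KO over Cx43FL for each adhesion gene with its standard error, from all 6 libraries (black circles) and without Cx43KO replicate 1 (open squares). The dotted line marks the median of all tested genes, 0.071, and all 20 points lie to its right, with Chl1 and Cntnap1 moving furthest towards it.

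Markers of other cell types moved with part of these differences. In TRAP libraries, a difference in the cells of a type, in RNA per cell or in the purity of the immunoprecipitate cannot be told apart. The 20 neuronal markers summed to CPM of 2965, 3471 and 3673 in Cx43FL against 9075, 3817 and 5190 in Cx43KO, with 7 at an unadjusted p below 0.05 higher and 1 lower and no gene at 0 in any library. Of the most abundant of them, Camk2a, a kinase of excitatory neurons, had CPM of 400.7, 403.2 and 540.6 against 2469, 715.0 and 747.1. Snap25 had 1175, 1441 and 1675 against 2761, 1342 and 2791, so that its libraries overlapped between the genotypes. Map2 was not higher in Cx43KO, with 518.0, 321.9 and 429.2 against 379.7, 352.7 and 346.5 (log2 fold change -0.23, standard error 0.27). The 11 oligodendrocyte markers summed to 619, 1078 and 681 against 2806, 1033 and 653, with 1 of 11 higher at that p and no gene at 0. Both lists were thus highest in Cx43KO replicate 1, as were Chl1, Nfasc, Ncam1 and Cntnap1. L1cam, Nrcam, Cntn1 and Alcam had their highest CPM in Cx43KO replicate 3, where the oligodendrocyte sum lay inside the Cx43FL range and the neuronal sum above it. The part of these markers in the results was not tested.

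The remaining lists were at lower sums or were spread widely in Cx43FL. The 14 tested of 16 microglial markers summed to CPM of 57.6, 69.5 and 39.0 in Cx43FL against 191.4, 114.6 and 282.9 in Cx43KO, with 8 of the 14 higher at an unadjusted p below 0.05, and Tmem119, C1qa, Itgam, Trem2 and Fcrls at 0 in at least 1 library. The microglial sum was highest in Cx43KO replicate 3 and lowest of the Cx43KO libraries in replicate 2, the order that L1cam, Nrcam, Cntn1 and Alcam also had. The 6 tested of 9 endothelial markers summed to between 7.16 and 17.3 in Cx43FL and between 12.6 and 54.4 in Cx43KO, with none of the 6 at that p, and Cldn5, Flt1, Tek and Emcn at 0 in at least 1 library. The 6 tested of 8 mural cell markers summed to between 34.4 and 42.1 in Cx43FL and between 38.2 and 91.7 in Cx43KO, with 1 of the 6 higher at that p, Kcnj8 at 0 in every library and Myh11 at 0 in at least 1. The 6 counted markers of oligodendrocyte precursors summed to between 69.6 and 95.2 in Cx43FL and between 45.9 and 84.1 in Cx43KO, with 1 of 6 higher at that p and Cspg4 at 0 in at least 1 library. The 9 markers of ependyma and choroid plexus summed to 9976, 494.9 and 15370 in Cx43FL against 32840, 26320 and 22100 in Cx43KO, with 1 of 9 higher at that p and Tmem212 and Folr1 at 0 in at least 1 library. Most of each sum was Ttr, at 9593, 450.1 and 14870 CPM in Cx43FL against 32150, 25640 and 21440 in Cx43KO. Cx43FL replicate 2, the lowest library for this list, was also the lowest Cx43FL library for L1cam, Nfasc, Cntn1, Cntnap1 and Alcam. It was the highest Cx43FL library for Ncam1 and Cntn2 and the middle one for Chl1, Nrcam and Ncam2. The part of these lists in the results was not tested either.

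**Figure D4:**
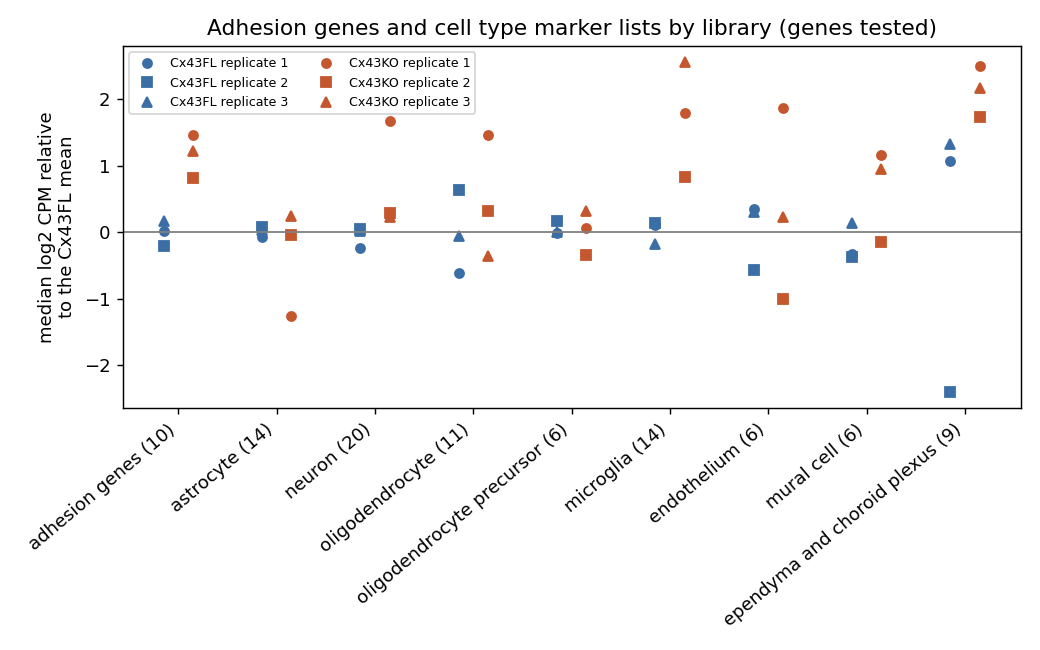
Median log2 CPM (0.5 added to each CPM) of the tested genes in each list, relative to the mean of the Cx43FL libraries. Each library is shown (blue Cx43FL, orange Cx43KO), with the number of genes tested in brackets. The added 0.5 narrows differences for genes at low CPM. The adhesion genes are at 1.46, 0.81 and 1.23 in Cx43KO replicates 1 to 3, while the neuronal markers are at 1.66, 0.30 and 0.23, the microglial markers at 1.79, 0.83 and 2.55 and the astrocyte markers at -1.25, -0.05 and 0.24.

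The transcripts of a gene offer a measure that the listing of the genes did not use. Transcripts that share exons also share reads in these tables, since a pair of Cntn1 transcripts had nearly equal counts in each library, as did 3 transcripts of Nfasc. A ratio of 2 such transcripts is therefore drawn towards 100% and understates a change of form. Over 15 ratios of a coding transcript to the transcript that represents its gene, 1 had libraries that did not overlap between the genotypes, and none had an adjusted p below 0.05 by the exact 2-sided permutation test, whose smallest p with 3 libraries against 3 is 0.1.

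The ratio without overlap was between the 2 main transcripts of Ncam1, which share most of the exons for the extracellular domains. The short-tailed transcript ends in 1 exon of its own with 74 coding bases. The long-tailed transcript, which represents the gene, goes on through 3 exons of its own with 443 coding bases and gives the form that crosses the membrane. The transcripts of Ncam2 part in the same way, with 104 and 434 coding bases of their own. The start of each ending is shown because these bases tell the forms apart, with 15 shared bases before it in lower case and the first 30 bases of the form's own exon in capitals.
Ncam1 short-tailed, chr9:49517553-49517582, minus strand: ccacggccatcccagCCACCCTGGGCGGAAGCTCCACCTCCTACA
Ncam1 long-tailed, chr9:49509883-49509912, minus strand: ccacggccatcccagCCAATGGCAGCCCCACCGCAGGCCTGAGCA
Ncam2 short-tailed, chr16:81595207-81595236, plus strand: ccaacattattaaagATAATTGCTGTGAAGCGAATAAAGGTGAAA
Ncam2 long-tailed, chr16:81615703-81615732, plus strand: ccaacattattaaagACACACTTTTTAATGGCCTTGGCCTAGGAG
The short-tailed Ncam1 count was 94.7%, 83.7% and 101% of the long-tailed count in Cx43FL, against 53.5%, 78.9% and 72.7% in Cx43KO. The short-tailed form was thus lower relative to the membrane-crossing form in each of the Cx43KO libraries than in any Cx43FL library, with a small margin for Cx43KO replicate 2. The difference of the mean log2 ratios was -0.46 (exact permutation p = 0.1, adjusted over the 15 ratios 0.643), and it was -0.29 without Cx43KO replicate 1. For Ncam2 the ratio was 85.4%, 124% and 110% in Cx43FL against 79.3%, 66.5% and 106% in Cx43KO, with a difference of -0.35 and overlapping libraries (exact permutation p = 0.2).

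**Figure D5:**
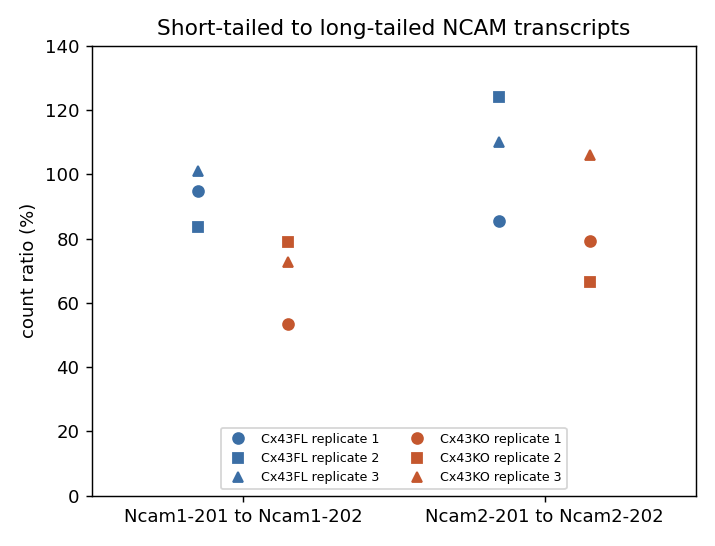
Count of the short-tailed transcript as a percent of the count of the membrane-crossing transcript of Ncam1 (left) and Ncam2 (right) in each Cx43FL (blue) and Cx43KO (orange) library. For Ncam1 the Cx43KO libraries lie between 53.5% and 78.9%, below the lowest Cx43FL library at 83.7%, whereas for Ncam2 the groups overlap.

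An antisense gene, Gm11149, overlaps 417 bases, or 13.5%, of the long-tailed Ncam1 transcript from the opposite strand, and its counts were 143, 142 and 145 in Cx43FL against 494, 426 and 915 in Cx43KO. A counting by strand is not stated in the sources used here, so reads of Ncam1 and Gm11149 cannot be told apart over these bases. None of the bases that either Ncam1 transcript has to itself at its 3′ end is overlapped.

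L1cam has 2 very short exons that are best known from the form of the protein made by neurons, and they are shown because the transcripts of L1cam differ by them. One transcript carries both, the transcript that represents the gene carries 1 very short exon, and another carries neither. Capitals mark the exon within its neighbouring bases.
L1cam first short exon, chrX:73867022-73867036, minus strand: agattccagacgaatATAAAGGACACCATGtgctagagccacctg
L1cam second short exon, chrX:73855652-73855663, minus strand: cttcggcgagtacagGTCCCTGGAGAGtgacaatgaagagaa
The transcript with both exons had 94.1%, 72.4% and 100% of the count of the representative transcript in Cx43FL against 98.4%, 84.1% and 98.2% in Cx43KO (exact permutation p = 0.7). The transcript with neither had 61.8%, 24.1% and 81.8% in Cx43FL against 55.1%, 32.6% and 57.7% in Cx43KO (exact permutation p = 0.8). Both ratios overlapped between the genotypes, and the lowest library of each genotype was the one with the fewest L1cam reads. Tested as features of their own, the transcripts with 1, both and neither had log2 fold changes of 3.63, 3.71 and 3.47, each with an adjusted p of 0.692 by edgeR. The reads of shared exons count for each of these transcripts, and the transcript with neither is also shorter, at 4116 against 5126 bases. These ratios and fold changes therefore cannot decide whether the use of the short exons differed.

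The genes that act with the adhesion molecules were described from lists that held them by role. Of the 14 cytoskeletal partners tested, none had an unadjusted p below 0.05. Ank3, the ankyrin that anchors neurofascin at the initial segment, had CPM of 34.7, 64.9 and 25.5 in Cx43FL against 285.9, 53.1 and 21.9 in Cx43KO. Only Cx43KO replicate 1 was outside the Cx43FL range on the high side, and the log2 fold change of 1.53 had a standard error of 0.77 and became -0.16 (standard error 0.50) without that library. Ank2, the most abundant of the list, had CPM between 1134 and 1260 in Cx43FL against 493.6, 874.4 and 1411 in Cx43KO, and its log2 fold change was -0.37 (standard error 0.36). Epb41l3, which holds Caspr to the cytoskeleton, and Msn, a membrane-to-actin linker, had log2 fold changes of 0.94 (standard error 0.56) and 0.80 (standard error 0.36).

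Of the 16 extracellular and membrane partners tested, 3 were higher at an unadjusted p below 0.05, against the 5.66% of all genes given above, and none was lower. Without Cx43KO replicate 1 there were 2, Itgb1 and Ncan. Tnr, a matrix protein that binds contactin, had CPM of 10.9, 1.39 and 7.16 in Cx43FL against 62.2, 15.8 and 24.5 in Cx43KO, and its log2 difference was 2.4 (standard error 0.78; edgeR adjusted p = 0.538), or 1.64 (standard error 0.75) without Cx43KO replicate 1. The others were Itgb1, an integrin subunit to which L1 binds, at 1.21 (standard error 0.40), and Adam22, a receptor of secreted LGI1, at 1.24 (standard error 0.47). Without Cx43KO replicate 1 these values were 0.87 (standard error 0.38) and 0.47 (standard error 0.35). Ptprz1, a receptor phosphatase and ligand of Cntn1, had CPM of 145.2, 221.9 and 169.5 against 220.0, 160.4 and 345.4, and a log2 fold change of 0.44 (standard error 0.34).

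Among the 6 tested genes for polysialic acid synthesis and shedding, St8sia2 alone had an unadjusted p below 0.05. It encodes a sialyltransferase that adds polysialic acid to NCAM, and its CPM were 0.659, 0 and 0.847 in Cx43FL against 23.1, 4.18 and 2.47 in Cx43KO, from counts of 10, 0 and 13 and of 372, 104 and 80. Cx43KO replicate 1 was far above the other Cx43KO libraries. Its log2 fold change was 4.28 (standard error 1.41; edgeR adjusted p = 0.540), and without Cx43KO replicate 1 it was 2.71 (standard error 1.55) and no gene of the list had an unadjusted p below 0.05. St8sia4, the other polysialyltransferase, had CPM of 4.74, 8.09 and 4.36 against 19.6, 1.61 and 5.84, and its log2 fold change turned from 0.65 to -0.63 without Cx43KO replicate 1. Bace1, a protease that cuts L1 and CHL1, had CPM of 89.0, 84.4 and 95.4 against 97.5, 95.0 and 114.8 and a log2 fold change of 0.19 (standard error 0.28).

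Of the 5 other contactin-associated proteins tested, Cntnap2 was higher at an unadjusted p below 0.05, with CPM of 44.1, 25.3 and 31.4 in Cx43FL against 61.7, 88.9 and 57.1 in Cx43KO (log2 fold change 1.04, standard error 0.37). It pairs with Cntn2 beside the paranode, and its highest library was Cx43KO replicate 2. It also stands on the study's own list, although DESeq2 with its prior gave it an adjusted p of 0.206 here. Of 37 other adhesion genes of the immunoglobulin superfamily, 3 were higher at that p and none was lower, a share near the 5.66% of all genes, and the median log2 fold change of the 37 was 0.54 against 0.071 for all genes. Without Cx43KO replicate 1, 4 were higher at that p (Cadm3, Lsamp, Thy1 and Neo1) and the median was 0.39. Cadm3, a synaptic adhesion molecule, had CPM of 20.9, 33.9 and 26.7 against 117.3, 64.3 and 45.1. Thy1, a lipid-anchored protein abundant on neurons, had CPM of 62.2, 61.8 and 51.1 against 183.0, 133.3 and 79.6. Cadm2 had CPM of 155.2, 105.5 and 165.8 against 411.6, 196.0 and 167.4. These 3 were named for a small p and libraries that do not overlap, so that neither is a result. Cx43KO replicate 1 was the highest library for each, and their adjusted p values were 0.490, 0.492 and 0.592 by edgeR. Without that library the log2 fold changes fell from 1.48 to 1.004 for Cadm3, from 1.18 to 0.86 for Thy1 and from 0.86 to 0.35 for Cadm2.

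Likeness of pattern was measured as the root mean square difference of log2 CPM over the 6 libraries, with 0.5 added to each CPM. Each gene was centred on its own mean, and 12707 genes were compared. The genes most like L1cam were Pigz at 0.33, Cd34 at 0.40, Cacna2d3 at 0.41, Cldn9 at 0.43 and Cdh12 at 0.46. Of these, Pigz, Cd34 and Cldn9 were low in Cx43FL, at no more than 0.461, 0.261 and 0.195 CPM. Their log2 fold changes were 4.35, 5.39 and 5.60, against 3.61 for L1cam, and the added 0.5 narrows differences at such levels. Those of Cacna2d3 and Cdh12 were 2.82 and 2.92. All 5 nearest genes had their lowest Cx43KO level in replicate 2, as L1cam had, which follows from how they were picked. These 5 also stand on the study's own list of higher genes, made from these libraries. Nfasc, the member nearest to L1cam, ranked 153 at 1.01. The genes most like Nfasc included Tmtc1 at 0.13, Slc22a23 at 0.17, Nrip3 at 0.17 and Leng8 at 0.20, and the member nearest to it was Cntnap1, which ranked 6 at 0.20. Cntnap1 and Nfasc therefore had close profiles over these libraries, with their highest CPM in Cx43KO replicate 1 and their lowest in Cx43FL replicate 2.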

How the data were processed

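Raw read counts on Ensembl transcripts were deposited for each library. The authors filtered reads in Eoulsan, mapped them with STAR on mm10, dropped reads mapping more than once and made the counts with HTSeq-count 0.5.3, per the labels and the study's methods. Libraries had been amplified with a kit for which strand is not stated.

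Of 75466 transcripts, 73157 were matched to GENCODE M21 (GRCm38), giving 22086 genes, and unmatched transcripts held 1.605% to 1.778% of the counts. Each gene was taken by its transcript with the highest total. Genotype and replicate came from the labels. The genotypes were tested against each other in edgeR 4.0.16 under R 4.3.3 (TMM, filterByExpr, quasi-likelihood F test, genotype alone, Benjamini-Hochberg over 13545 genes); a call needed an adjusted p below 0.05 and over 50 mean normalized counts in the higher group. DESeq2 1.42.0, with the prior (the study's tool) and without it, other filters and scaling, the replicate block, leaving out each library, summed or separate transcripts and the unadjusted p were alternatives; CPM are after TMM scaling. Transcript ratios had 0.5 added to each count, for transcripts with at least 100 counts in all. Scripts were tested on simulated data. Intervals of depth, taken at 3 counts before TMM scaling, cover counting error only.

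The genes and lists were chosen with earlier results of these data known. Named genes are the 10 members, Gja1 and, of the partner lists, genes past the threshold by edgeR or DESeq2 with its prior (none). Otherwise up to 3 per list with the smallest p and no overlap were named, and 8 partners with a structural tie. The 5 genes most like L1cam and Nfasc and the most abundant markers were also named. Of these markers, the CPM of the neuronal ones and of Ttr are given. Some results covered by this rule are not reported here. No pair of libraries of the same genotype differed by as little as sampling noise (chi-square per degree of freedom at least 33.7). The file names number the libraries of each genotype in a range of its own; whether these are batches is not stated, and such a batch cannot be told apart from genotype. The authors' comparison tables were used only to say which genes stand on their list. The Western blots and the imaging were not used here.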

Additional observations from a re-analysis of the deposited data

How the results depend on the processing

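All 140 log2 fold changes of the 10 genes under 14 alternatives were positive, the lowest being 0.17. Against 0 of the 10 called by edgeR, the unadjusted p gave 7 and DESeq2 gave 2 (L1cam and Nfasc) with its prior and 2 without. With DESeq2, L1cam had adjusted p values of 1.66e-04 and 1.02e-04 and Nfasc 0.0210 and 0.0155, whereas over the edgeR alternatives those of L1cam lay between 0.212 and 0.934. Of all genes, edgeR called 1 higher and 0 lower. This became 763 and 358 with the unadjusted p, 113 and 17 by DESeq2 with its prior, 147 and 27 without it, and 0 higher with at least 10 counts in every library and with summed transcripts. Leaving out each library gave 0 to 11 higher, the 11 being without Cx43KO replicate 1. The members at an unadjusted p below 0.05, a count added after seeing the data, were 4 to 7 of the 10 when each library was left out, the 4 (L1cam, Nrcam, Nfasc and Ncam1) without Cx43FL replicate 2, and 7 with all. With the replicate number as a block, 2 genes were called higher (Prm1 and Ighg2c, named after their values were seen), no member was called, and 6 members had an unadjusted p below 0.05. For same-numbered libraries, the deviations of log2 CPM (0.5 added to each CPM) from the mean of their genotype correlated between -0.055 and 0.011. By this measure the replicate numbers showed no pairing. The cause of these changes was not tested. Among the 10 genes, L1cam had the fewest counts in Cx43FL, 29 to 68. Values of the partner lists without Cx43KO replicate 1 were added after seeing the data.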
